A study of Mus musculus with 21 samples.

Results

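The 3 colony-stimulating factors and the 5 receptor subunits that bind them were followed through 21 RNA-seq libraries of mouse bone-marrow-derived macrophages. They were picked by gene symbol: Csf1, Csf2 and Csf3 for the secreted factors, and Csf1r, Csf2ra, Csf2rb, Csf2rb2 and Csf3r for the receptors. All 8 were found among the 23250 genes of the deposited table, and all 8 passed the filter on low counts that left 13468 genes for testing.

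Csf1 encodes M-CSF, the survival and growth factor of macrophages, Csf2 encodes GM-CSF, and Csf3 encodes G-CSF, the factor that drives neutrophil production. M-CSF acts through the receptor tyrosine kinase Csf1r, and G-CSF through the cytokine receptor Csf3r. GM-CSF binds the alpha chain Csf2ra, which pairs with a beta chain, encoded by Csf2rb, to activate JAK2 and STAT5. Mice carry a near copy of that gene, Csf2rb2, whose product serves the IL-3 receptor. Activated macrophages can themselves make all of these factors, so the same cells can be their source and their target.

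The study, by its series text, asked what the soluble mannose receptor does to macrophages, and used macrophages without mannose receptor on a C57BL/6J background. Marrow cells of femur and tibia were cultured for 7 days with the supernatant of a cell line that makes GM-CSF, so every group, the controls included, had been grown in the product of Csf2. The cells then received FcMR, in which the ectodomain of that receptor is joined to the Fc part of human IgG1, or an isotype control protein, each for 4, 12 or 24 h. A seventh group was left untreated and taken at 0 h. Each of the 7 groups had 3 libraries. Nothing in the labels says whether the 3 came from separate mice or cultures, so the p-values measure only the spread between these libraries, which may be technical. The labels give no untreated cells at later times, so against the untreated group the isotype protein and time in culture cannot be told apart.

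Levels are given as CPM, the estimated counts of a gene scaled to a common library size with TMM factors, with means ± SD over 3 libraries. Differences are edgeR log2 fold changes with their standard error, and a gene was called when its Benjamini-Hochberg adjusted p over all genes tested was under 0.05. Library totals ran from 5532225 to 66729533, so that 3 counts correspond to between 0.0454 and 0.558 CPM. All 6 macrophage markers checked, such as Adgre1, Cd68 and Mertk, were detected in every library. At 24 h, though, 1 of them was called higher and 4 lower with FcMR than with isotype, where 20.9% of all genes were called. Their sums were 24113 to 26045 CPM with FcMR and 30012 to 34211 CPM with isotype. Most of these sums was Lyz2, which ran from 16620 to 30485 CPM over the 21 libraries. Mrc1, the mannose receptor gene, had at most 11 counts. Of 7 dendritic cell markers, Itgax was at 852 to 1232 CPM and Ccr7 at 237 to 704 CPM. The rest were far lower. Zbtb46 was at 17.2 to 50.1 CPM, Flt3 at 2.04 to 31.7 CPM and Cd209a at 0 to 19 CPM. Clec9a was at 1.6 to 15.8 CPM and Xcr1 at 0.243 to 4.14 CPM. In bulk RNA, fewer cells of a type and less RNA per cell cannot be told apart. Libraries also differed in their GC tilt, the mean log2 level of GC-rich genes (transcripts of at least 58% GC) minus that of GC-poor genes (at most 42.2%), relative to all libraries. It ran from -1.6 to 0.826. It differed widely within some groups, from -1.6 to 0.649 in isotype at 4 h, and little in isotype at 24 h, from -0.102 to -0.0423. It also differed between groups. Every FcMR library of 4 h was negative, at -0.523 to -0.192, and every untreated library positive, at 0.0544 to 0.823. In such comparisons tilt and group cannot be fully told apart. Isotype 4 h replicate 3 and FcMR 12 h replicate 1, whose library numbers stand out of group order in the titles, had tilts of 0.649 and -0.751, on the far side of zero from the others of their groups. The labels do not settle whether the names of these libraries were exchanged. An exchange would change what the values of isotype at 4 h and FcMR at 12 h stand for. Ly6g, though, was at 4.68 to 5.16 CPM in the isotype libraries of 4 h and 0.262 to 0.879 CPM in the FcMR libraries of 12 h. S100a9 was at 480 to 659 and 112 to 210 CPM. By Ly6g and S100a9 both libraries lay with their labelled groups, while the ranges of Csf2ra, 62.7 to 230 and 80.8 to 224 CPM, overlapped. On log2 CPM of all genes tested, isotype 4 h replicate 3 correlated at 0.92 to 0.951 with the others of its group and at 0.956 to 0.958 with the others of FcMR at 12 h. FcMR 12 h replicate 1 correlated at 0.957 to 0.958 with its own group and at 0.943 to 0.956 with the others of isotype at 4 h. Their labels were kept, and results without both are given in the account of how results depend on the processing.

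In untreated cells Csf2rb, Csf2rb2, Csf1r and Csf2ra were the most abundant of the 8 per length of transcript. Csf2rb stood at 421 ± 13 CPM per kb, Csf2rb2 at 205 ± 4.45, Csf1r at 174 ± 1.17 and Csf2ra at 87.4 ± 31.7 CPM per kb. Csf1 followed at 40.3 ± 1.34 and Csf3r at 7.52 ± 0.56 CPM per kb. Csf3, at 0.331 ± 0.128, and Csf2, at 0.251 ± 0.135 CPM per kb, were near the floor. Csf3 and Csf2 were the one pair of neighbours in this order whose libraries overlapped. Cells kept in GM-CSF thus held transcripts of both chains of its receptor, Csf2ra and Csf2rb, and hardly any of GM-CSF itself.

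Against the isotype control, the transcripts of all 3 factors were higher with FcMR at 4 h, and later their courses parted. At 4 h, 3 of the 8 genes were called higher and 1 lower, where 17.7% of all genes tested were called in that comparison. At 12 h, 2 were higher and 2 lower, where 16.1% of all genes were called. At 24 h, 0 were higher and 1 lower, where 20.9% of all genes were called. Csf2 and Csf3 each exceeded 1 CPM in only 1 library without FcMR, and so reached the tested set through the group where they were high. Their place in these counts therefore carries no weight of its own.

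Csf1 (chromosome 3, 107741048 to 107760469, minus strand, GRCm38) was higher with FcMR at 4 h and lower at 24 h. At 4 h the FcMR libraries stood at 266, 276 and 241 CPM and the isotype libraries at 149, 122 and 153 CPM. At 12 h the FcMR libraries held 126, 134 and 121 CPM and the isotype libraries 137, 123 and 113 CPM. At 24 h the values were 71.2, 65.5 and 81.4 CPM with FcMR and 129, 124 and 122 CPM with isotype. The groups did not overlap at 4 h, intermingled at 12 h, and were apart again at 24 h in the other direction. The log2 difference was 0.89 (SE 0.0984, edgeR adjusted p 7.14e-06) at 4 h, 0.03 (SE 0.0975, adjusted p 0.911) at 12 h and -0.78 (SE 0.099, adjusted p 1.24e-05) at 24 h. A joint edgeR test of whether the difference from isotype varied over the 3 times gave an adjusted p of 2.04e-06. At 24 h, 4 of the 6 macrophage markers were lower and 1 higher by the pairwise edgeR test, where 20.9% of all genes were called. The part of macrophage content in the level of Csf1 was not tested.

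Untreated cells held 166, 175 and 165 CPM of Csf1, between the FcMR libraries of 4 h and every other treated library. Ordered by mean, FcMR at 4 h came first, then untreated, isotype at 4 h, FcMR at 12 h, isotype at 24 h, isotype at 12 h and FcMR at 24 h. The 4 groups from isotype at 4 h to isotype at 12 h overlapped with their neighbours, and the first, second and last stood clear. Against untreated cells, Csf1 fell by 0.44 (SE 0.0976, edgeR adjusted p 0.00148) in isotype cells at 12 h and by 0.43 (SE 0.0979, adjusted p 0.00169) at 24 h. The FcMR libraries differed from untreated by 0.63 (SE 0.0976, adjusted p 3.52e-05) at 4 h, -0.41 (SE 0.0975, adjusted p 0.00198) at 12 h and -1.21 (SE 0.0993, adjusted p 1.54e-08) at 24 h.

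The promoter of Csf1 is shown because its transcript moved in both directions. The window covers 250 bases before to 50 after the RefSeq start (chr3:107760420-107760719, minus strand, GRCm38.p6). Capitals mark a match to the letters GGACTTTCC or their complement, one form of the kB element bound by NF-kB, found 154 to 146 bases before the start.
Csf1: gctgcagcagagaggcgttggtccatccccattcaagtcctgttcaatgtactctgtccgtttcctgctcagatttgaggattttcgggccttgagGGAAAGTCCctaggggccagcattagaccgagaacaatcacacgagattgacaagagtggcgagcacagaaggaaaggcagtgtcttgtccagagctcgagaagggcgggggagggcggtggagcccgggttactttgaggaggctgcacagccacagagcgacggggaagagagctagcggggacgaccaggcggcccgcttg
These letters, searched on both strands, occur in 113 of 32851 RefSeq promoter windows of this length (0.344%). AP-1 letters (TGANTCA, in 7.81% of windows) and STAT letters (TTCNNNGAA, in 8.3% of windows) were not in the Csf1 window. Among the 5 genes of the 8 with a window, the only other match to any of these letters was in Csf2rb2. It was a match to the STAT letters at positions -15 to -7 from its start. The motifs were chosen with the results known, and a match describes the letters, not a bound site.

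Csf2 (chromosome 11, 54247271 to 54249667, minus strand) was near the floor except with FcMR at 4 h. There the libraries held 129, 200 and 37 counts, or 9.13, 7.51 and 6.88 CPM. The isotype libraries of 4 h held 9, 3 and 1 counts, or 1.29, 0.54 and 0.116 CPM, and untreated libraries 3, 5 and 1 counts. The lowest FcMR library was thus above the highest isotype library. The log2 difference at 4 h was 3.63 (SE 0.564, edgeR adjusted p 0.000314), and against untreated cells it was 5.23 (SE 0.601, adjusted p 2.59e-06). Csf2 reached the tested set through these FcMR libraries, so the p-values add no support beyond the levels shown. The size of the difference from isotype rests on few isotype counts: it was 4.74 without isotype 4 h replicate 1 and 3.06 without isotype 4 h replicate 3, and was called in both cases.

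At 12 h, Csf2 was back near the floor, with 2, 1 and 4 counts in FcMR libraries and 0, 0 and 4 in isotype libraries. At 24 h it had 1, 0 and 0 counts with FcMR and 0 in every isotype library. No fold between FcMR and isotype is given at these times. Untreated libraries together held 9 counts, so that the isotype cells of 24 h were at least 1.85-fold lower, taking 3 counts over the group as the floor. That difference had an edgeR adjusted p of 0.0366, which rose to 0.0554 with DESeq2 and 0.0544 with no filter, and which was 0.0797 to 0.0948 with 1 of the isotype 24 h libraries left out.

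The Csf2 window is printed beside that of Csf1 because both transcripts were higher at 4 h (chr11:54249850-54250149, minus strand, GRCm38.p6).
Csf2: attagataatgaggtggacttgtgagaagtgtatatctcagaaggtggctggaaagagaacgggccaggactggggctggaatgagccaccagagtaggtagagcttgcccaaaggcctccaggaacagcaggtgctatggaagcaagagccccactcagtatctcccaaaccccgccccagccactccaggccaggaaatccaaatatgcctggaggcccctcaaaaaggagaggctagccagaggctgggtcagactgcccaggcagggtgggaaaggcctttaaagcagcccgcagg
None of the 3 sets of letters is in this window. The RefSeq start lies 232 bases upstream of the GENCODE gene start, so the window is not the sequence just before the latter.

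Csf3 (chromosome 11, 98701263 to 98703629, plus strand) was higher with FcMR at 4 h and at 12 h. At 4 h the FcMR libraries stood at 9.69, 10.6 and 11.2 CPM and the isotype libraries at 0.574, 0.9 and 1.5 CPM. At 12 h these were 1.83, 1.83 and 1.89 CPM with FcMR and 0.112, 0 and 0.257 CPM with isotype. Groups did not overlap at either time, and the FcMR libraries of 12 h were above all 3 untreated libraries, at 0.291, 0.459 and 0.653 CPM. The log2 difference from isotype was 3.35 (SE 0.435, edgeR adjusted p 3.19e-05) at 4 h and 3.27 (SE 0.481, adjusted p 8.92e-05) at 12 h. The latter became 4.4 without isotype 12 h replicate 3, the library that held 17 of the 19 isotype counts. Csf3 too reached the tested set through FcMR libraries, so the p-values add no support beyond the levels shown.

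At 24 h, Csf3 had 0, 3 and 1 counts with FcMR and 0, 1 and 2 with isotype, and no fold between them is given. The 21 counts of the untreated group exceeded the 3 of isotype at 24 h by a ratio of 4.31 (95% Poisson interval 1.29 to 22.6, counting error only). That difference had an edgeR adjusted p of 0.0359, which was 0.0762 with DESeq2, 0.163 without isotype 24 h replicate 1 and 0.0989 without isotype 24 h replicate 2. The joint test over the 3 times gave an edgeR adjusted p of 0.123 for Csf3 and 0.614 for Csf2. With limma on the deposited normalized values the same tests gave 0.00722 and 0.039. These joint tests cover all 3 times at once and rest on few counts at 24 h. A loss of the FcMR difference between 12 and 24 h was not tested by itself.

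**Figure D1:**
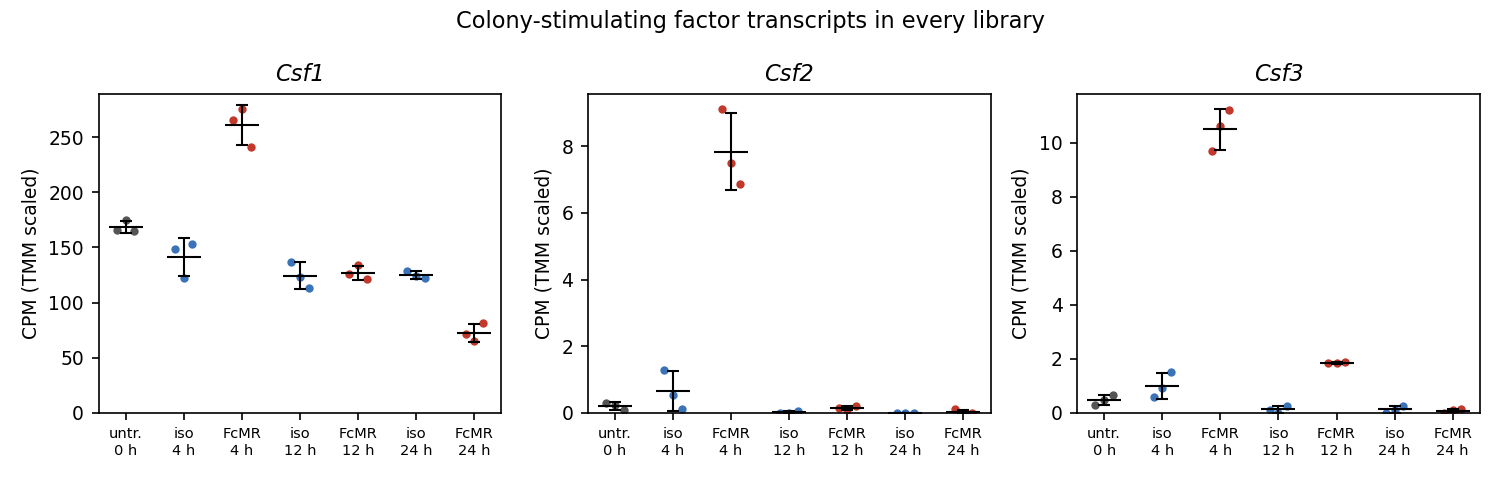
CPM (TMM scaled, linear axis from 0) of Csf1, Csf2 and Csf3 in each of 21 libraries, ordered by time, with untreated in grey, isotype in blue and FcMR in red. Horizontal bars are means and error bars SD over 3 libraries; the FcMR libraries of 4 h are the highest of all in the 3 panels, and those of 24 h are the lowest for Csf1.

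Markers of cells that could add these transcripts were read in the same libraries. T and NK cells are a source of Csf2. Of 6 markers for them, 5 were in the table. Cd3e had at most 4 counts in any library and Cd3d at most 10, while Cd8a reached 94 counts (3.01 CPM) and Klrb1c 52 counts (1.95 CPM). The summed level was 2.23 to 2.78 CPM with FcMR at 4 h and 1.98 to 3.47 CPM with isotype. Mast cells and basophils can make Csf2 as well, and their 4 markers summed to 24.9 to 32.9 CPM with FcMR and 24.1 to 32.4 CPM with isotype at 4 h. Stromal and endothelial cells can make Csf1 and Csf3. Of 5 markers for them, Col1a2 had at most 3 counts and Col1a1 at most 1.62 CPM, while Cdh5 reached 193 counts (6.35 CPM). Their sum was highest with FcMR at 4 h, at 6.15 to 9.17 CPM against 4.3 to 7.52 CPM with isotype, ranges that overlapped. Only 2 T and NK cell markers and 2 stromal markers passed the filter, with all 4 of mast cells and basophils, and none of these was called between FcMR and isotype at any time. The part of such cells in the levels of the factors was not tested.

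The alpha chain of the GM-CSF receptor, Csf2ra (chromosome 19, 61223957 to 61228429, minus strand), was not called in any comparison, and it varied widely within groups. Isotype libraries of 4 h stood at 93.8, 62.7 and 230 CPM, and FcMR libraries of 4 h at 120, 126 and 109 CPM. At 12 h the values were 80.8, 224 and 223 CPM with FcMR and 167, 206 and 275 CPM with isotype. At 24 h they were 91.7, 68.6 and 136 CPM with FcMR and 133, 126 and 143 CPM with isotype, while untreated libraries held 224, 108 and 152 CPM. FcMR and isotype overlapped at all 3 times. The log2 differences from isotype were -0.13 (SE 0.422), -0.3 (SE 0.418) and -0.45 (SE 0.423), with edgeR adjusted p-values of 0.889, 0.748 and 0.535. Without isotype 4 h replicate 3 the 4 h value turned to 0.6 (adjusted p 0.278), and without FcMR 12 h replicate 1 the 12 h value turned to 0.05 (adjusted p 0.987).

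The transcript of Csf2ra is 61.5% GC, against 44.8% to 56.6% for the other 7 genes, and its level moved with the GC tilt of the library. The largest fold between replicates of a group was 3.67, larger than for 81.9% of the genes tested. Its replicates ranked in the same order as their tilts in 5 of the 7 groups, and the library with the lowest tilt was the lowest for Csf2ra in 6. In isotype cells at 4 h, the levels of 93.8, 62.7 and 230 CPM went with tilts of -0.841, -1.6 and 0.649. In FcMR cells at 12 h, 80.8 CPM went with -0.751, and 224 and 223 CPM with 0.719 and 0.807.

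An edgeR fit with a GC term for each library narrowed the standard errors of Csf2ra to between 0.102 and 0.106. Against isotype, the FcMR differences at 4, 12 and 24 h became 0, -0.01 and -0.16, with adjusted p-values of 0.994, 0.958 and 0.271. Against untreated cells this fit turned the sign and called Csf2ra higher, by 0.27 (adjusted p 0.0443) in isotype cells at 4 h, 0.29 (0.023) in isotype cells at 24 h and 0.27 (0.0334) in FcMR cells at 4 h. Without the correction these values were -0.32, -0.27 and -0.45. With other libraries in the fit, and no GC term, Csf2ra was called lower instead. In isotype cells at 4 h it was -1.04 without isotype 4 h replicate 3 (adjusted p 0.0411) and also without both libraries out of title order (adjusted p 0.00897). In FcMR cells at 24 h it was -0.67 without both (adjusted p 0.034). The direction against untreated cells therefore depends on the treatment of GC content and on the libraries kept.

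**Figure D2:**
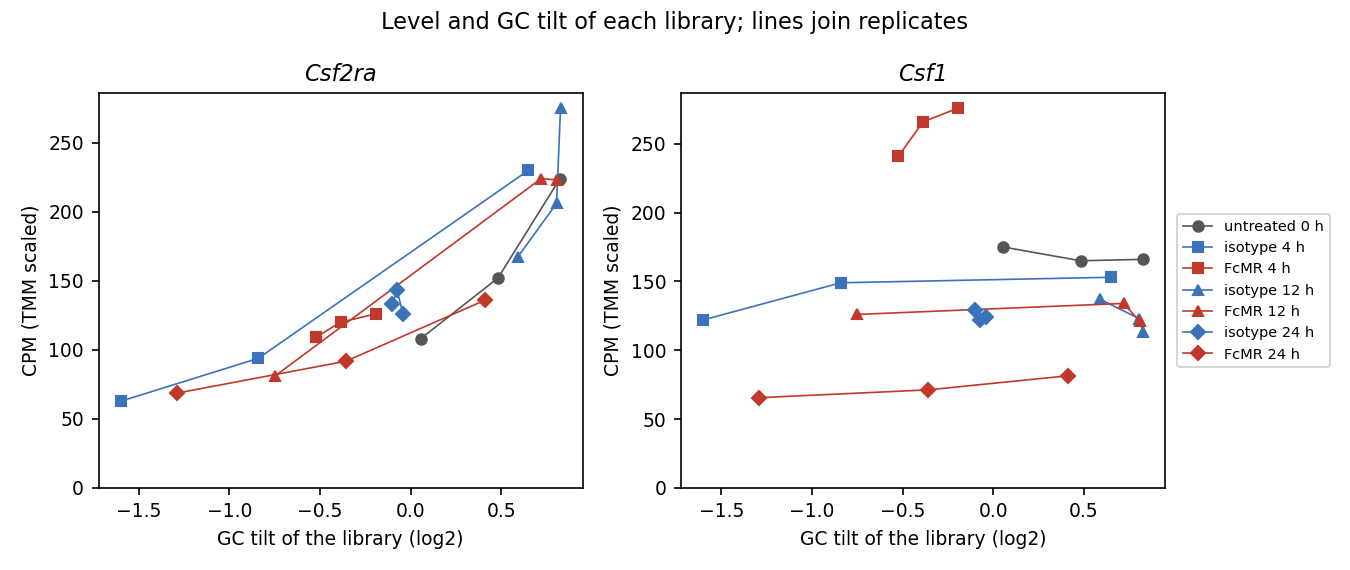
CPM (TMM scaled, linear axis from 0) of Csf2ra and, for contrast, Csf1 against the GC tilt (log2) of each library; lines join the 3 libraries of a group, with colours for treatment and symbols for time. Csf2ra climbs with tilt within most groups, from 62.7 to 230 CPM in isotype cells at 4 h. For Csf1, FcMR at 4 h, untreated and FcMR at 24 h lie apart, and the other groups overlap.

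The beta chains Csf2rb (chromosome 15, 78325752 to 78353847, plus strand) and Csf2rb2 (chromosome 15, 78282507 to 78305721, minus strand) lie side by side on opposite strands. Their coding sequences were identical at 2503 of 2628 aligned bases (95.24%). Of all stretches of 31 bases, 26.2% of those in Csf2rb transcripts also occur in Csf2rb2, and 29% of those in Csf2rb2 occur in Csf2rb. The first 75 coding bases, the length of 1 read, show how near the copies are, with capitals at the 2 mismatches (chr15:78335207-78335281, plus strand, and chr15:78298155-78298229, minus strand, GRCm38).
Csf2rb: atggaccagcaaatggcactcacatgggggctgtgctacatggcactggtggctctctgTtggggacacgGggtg
Csf2rb2: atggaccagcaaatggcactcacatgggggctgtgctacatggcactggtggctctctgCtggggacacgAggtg
A read from a shared stretch cannot be given to one copy by its sequence, so each copy's level is less certain than the sum. The ratio of Csf2rb to Csf2rb2 was 2.06 ± 0.132 over the 21 libraries, with a range of 1.79 to 2.21. It was lowest in isotype cells at 4 h, at 1.79 to 1.94, below the 2 to 2.2 of untreated cells.

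Both beta chains were lower with FcMR than with isotype at 12 h. Csf2rb stood at 1622, 1836 and 1741 CPM with FcMR and at 2327, 2178 and 2036 CPM with isotype. Csf2rb2 stood at 743, 900 and 854 CPM with FcMR and at 1055, 998 and 982 CPM with isotype. For both genes every FcMR library was below every isotype library. The log2 difference was -0.33 (SE 0.0918, edgeR adjusted p 0.0176) for Csf2rb, -0.28 (SE 0.0821, adjusted p 0.0242) for Csf2rb2, and -0.32 (SE 0.0867, adjusted p 0.0167) for their sum. Both calls were lost with GC correction, at -0.22 (adjusted p 0.0716) and -0.18 (adjusted p 0.121). They were also lost without FcMR 12 h replicate 1 (adjusted p 0.0809 and 0.121), without isotype 12 h replicate 1 (0.0926 and 0.0937) and without both libraries out of title order (0.0671 and 0.0826). No filter (0.101 and 0.152) and a fit of only the groups compared (0.0682 and 0.122) lost them too. The sign stayed negative in all of these.

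At 4 h and 24 h neither beta chain was called between FcMR and isotype, with log2 differences between -0.1 and 0.05. At 4 h Csf2rb was at 1856 ± 122 CPM with FcMR and 1796 ± 115 CPM with isotype, and at 24 h at 1587 ± 213 and 1703 ± 18.7 CPM. The groups overlapped at both times. Against untreated cells, at 2064 ± 63.6 CPM of Csf2rb and 971 ± 21.1 CPM of Csf2rb2, isotype cells at 24 h were lower by edgeR, at -0.28 (adjusted p 0.0211) and -0.3 (adjusted p 0.00691). The former was not called with RLE factors (adjusted p 0.051), with GC correction (0.0539), or without any 1 of the isotype 24 h libraries. The latter was not called without isotype 24 h replicate 2 (adjusted p 0.0578) or with no filter (0.0519).

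Csf3r (chromosome 4, 126024550 to 126044440, plus strand), the receptor of G-CSF, was higher with FcMR at 12 h and not at the other times. At 12 h the FcMR libraries held 36.5, 42.9 and 41.8 CPM and the isotype libraries 22.7, 20.1 and 23.4 CPM. At 4 h they held 13.9, 14.1 and 16.4 CPM with FcMR and 16.1, 14.2 and 18.9 CPM with isotype. At 24 h they held 19.3, 16.7 and 21.8 CPM with FcMR and 20.3, 19.8 and 20.2 CPM with isotype. The FcMR libraries of 12 h were above all others of the series, and at 4 h and 24 h the groups overlapped. The log2 difference was 0.86 (SE 0.115, edgeR adjusted p 3.3e-05) at 12 h, against -0.17 (SE 0.123, adjusted p 0.406) at 4 h and -0.07 (SE 0.119, adjusted p 0.768) at 24 h. The joint test over time gave an adjusted p of 0.000697, and the difference was 1.03 larger at 12 h than at 4 h.

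Untreated libraries held 26.6, 24.1 and 27.9 CPM of Csf3r, above every isotype library. The log2 difference of isotype from untreated cells was -0.67 (SE 0.12, edgeR adjusted p 0.000279) at 4 h. At 24 h the value was -0.38 (SE 0.118, adjusted p 0.0146), a call that leaving out any 1 of the isotype 24 h libraries removed. FcMR cells were lower than untreated at 4 h, at -0.83 (adjusted p 1.47e-05), and higher at 12 h, at 0.63 (adjusted p 0.000195).

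Csf3r is also a gene of neutrophils, whose markers fell over the culture. The summed level of 10 neutrophil markers, among them Ly6g, S100a8 and S100a9, was 1409 to 1638 CPM in untreated libraries. Most of it was S100a8, at 407 ± 39.1 CPM, and S100a9, at 707 ± 55.9 CPM. At 12 h the sum was 317 to 539 CPM with FcMR and 296 to 385 CPM with isotype, ranges that overlapped. Between these 2 groups 1 of the 10 was called, where 16.1% of all genes were. It was S100a8, higher by 0.53 (SE 0.161, edgeR adjusted p 0.0293). At 12 h Ly6g was at 0.59 ± 0.311 CPM with FcMR and 0.437 ± 0.125 CPM with isotype, and Elane was at 0 in 5 libraries of the series. Against untreated cells, all 10 were lower in isotype cells at 12 h, where 41.6% of all genes were called. The part of neutrophils in the level of Csf3r was not tested.

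**Figure D3:**
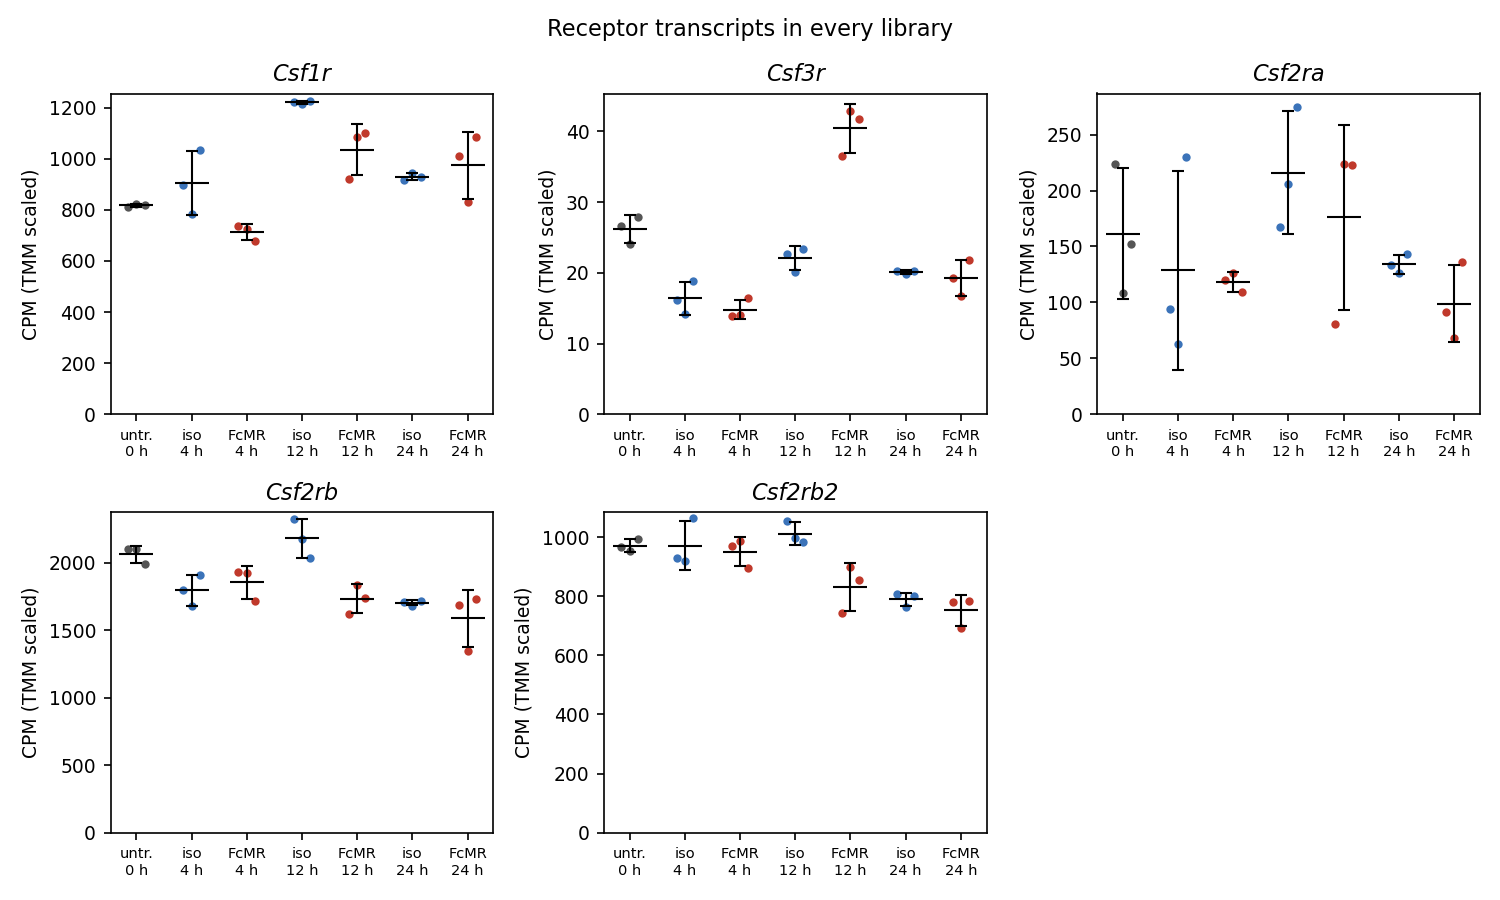
CPM (TMM scaled, linear axes from 0) of the 5 receptor genes in each library, with means and SD over 3 libraries; untreated is grey, isotype blue and FcMR red. Csf3r is highest in the FcMR libraries of 12 h, at 36.5 to 42.9 CPM, and Csf2ra has the widest spread within groups.

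Csf1r, the receptor of M-CSF (chromosome 18, 61100598 to 61132149, plus strand), was highest in isotype cells at 12 h. Those libraries held 1222, 1215 and 1227 CPM, against 812, 823 and 819 CPM in untreated cells. The groups were far apart, and the log2 difference was 0.58 (SE 0.103, edgeR adjusted p 0.000195). FcMR libraries of 12 h held 919, 1086 and 1099 CPM, below every isotype library of that time, with a difference from isotype of -0.24 (SE 0.102, adjusted p 0.136) that was not called.

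At 4 h the FcMR libraries held 735, 726 and 679 CPM of Csf1r and the isotype libraries 897, 784 and 1035 CPM. They did not overlap, and the log2 difference was -0.34 (SE 0.103, edgeR adjusted p 0.0261). That call was lost with RLE factors (-0.28, adjusted p 0.0649), with no filter (-0.23, adjusted p 0.303) and with limma (-0.27, adjusted p 0.0887). It was also lost without FcMR 4 h replicate 2 or 3 and without isotype 4 h replicate 1 or 3, at adjusted p-values of 0.0552 to 0.15. A fit of only the groups compared (-0.35, adjusted p 0.133) lost it too. So did leaving out both libraries out of title order (-0.24, adjusted p 0.0706). GC correction kept it, and over all alternatives the difference ran from -0.41 to -0.23. With GC correction edgeR also called results of Csf1r that the main fit did not. They were isotype over untreated at 4 h (0.44, adjusted p 0.000143) and 24 h (0.3, adjusted p 0.00329), and the joint test over time (adjusted p 0.00186, against 0.147). At 24 h the groups overlapped, at 974 ± 131 CPM with FcMR and 930 ± 15 CPM with isotype. Csf1r shares its locus with Hmgxb3 on the opposite strand, which stood at 24.4 to 31.2 CPM by group mean, and with the microRNA gene Mir6983. Whether counting used strand is not given in the sources used here.

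**Figure D4:**
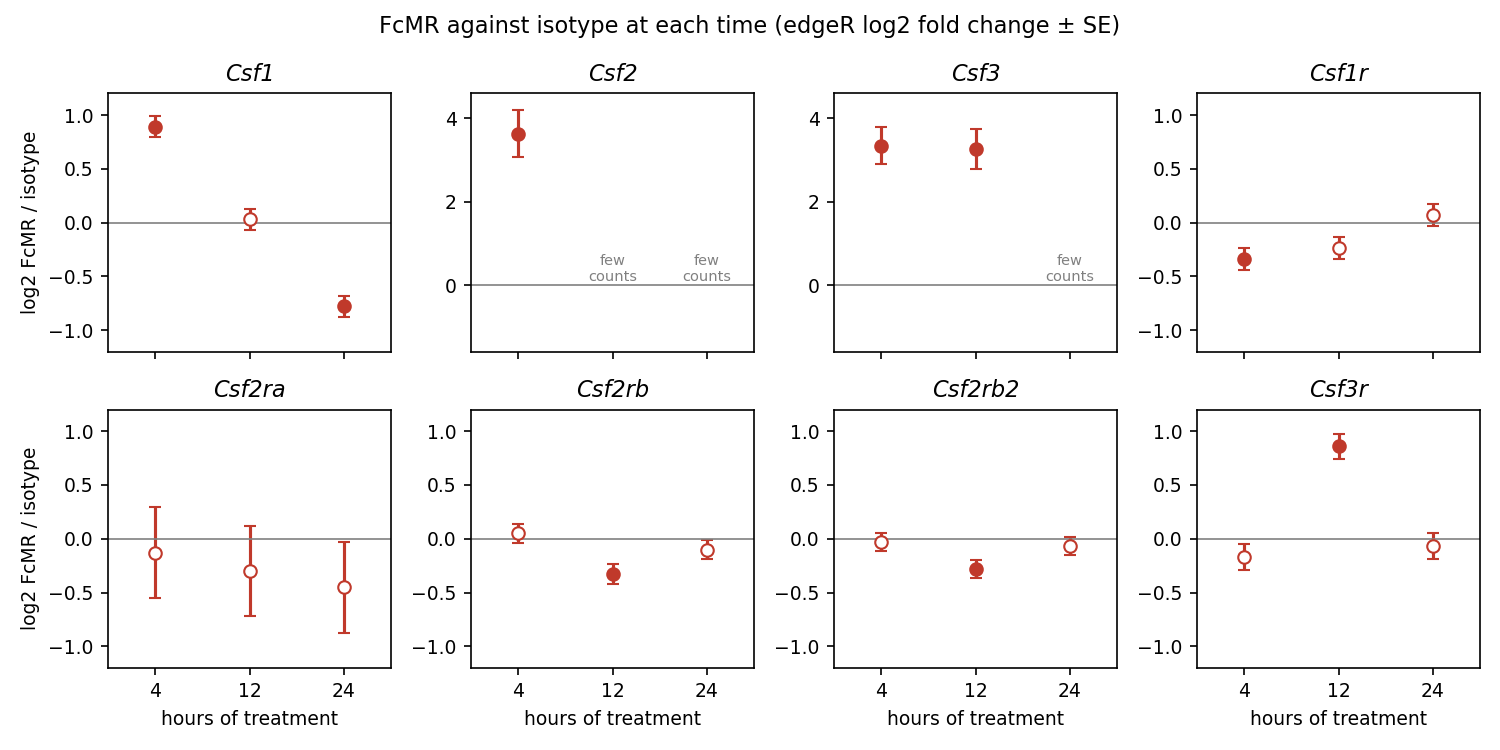
Log2 fold change of FcMR over isotype with its standard error (edgeR) at 4, 12 and 24 h for each of the 8 genes; filled points passed an adjusted p of 0.05, and times with few counts in both groups carry no point. The axes of Csf2 and Csf3 run to 4.6 and the other axes to 1.2; Csf1 crosses zero, from 0.89 to -0.78, and Csf3r stands out at 12 h alone, at 0.86.

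These genes also differed between treated and untreated cells. Of the 8, isotype cells had 1 lower than untreated at 4 h, where 35.6% of all genes were called. At 12 h 1 was higher and 1 lower, where 41.6% of all genes were called, and at 24 h 0 were higher and 6 lower, where 42.2% were called. Of those 6 calls at 24 h, only that of Csf1 held in every alternative run, and Csf2 and Csf3 were near the floor there. FcMR cells compared with untreated had 3 higher and 1 lower at 4 h (48.2% of all genes called), 3 higher and 3 lower at 12 h (48.1%), and 1 higher and 5 lower at 24 h (51.4%). In the joint test of the FcMR difference over time, 2 of the 8 were called, Csf1 and Csf3r, where 11% of all genes were. In FcMR cells at 12 h the calls of Csf2rb and Csf2rb2 against untreated were lost in several alternatives (edgeR adjusted p up to 0.153 and 0.228). So was that of Csf1r at 24 h (up to 0.106). At 24 h the calls of Csf2rb and Csf3r were lost in a fit of only the groups compared (0.0732 and 0.052). These comparisons share the untreated or the isotype libraries.

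The transcripts nearest to the 8 in the pathway were read from 4 lists. Of 5 further ligands and receptor chains, only Il3ra and Il5ra passed the filter, and neither was called between FcMR and isotype. Il5ra, the alpha chain that pairs with Csf2rb for IL-5, was at 0.928 to 2.46 CPM by group mean, and Il3ra at 4.1 to 19.5 CPM. Il34, the other ligand of Csf1r, had at most 6 counts in a library.

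Of 17 genes of proximal receptor signalling, FcMR cells had 6 higher and 1 lower than isotype at 4 h, where 17.7% of all genes were called, with a median log2 difference of 0.25 against -0.07 for all genes. Stat5a, the main STAT of GM-CSF, rose from 128 ± 53.4 to 299 ± 38.4 CPM, a difference of 1.22 (SE 0.238, edgeR adjusted p 0.00143). Stat3, the main STAT of G-CSF, rose by 0.88 (SE 0.111, adjusted p 2.53e-05). Inpp5d, which encodes the lipid phosphatase SHIP1, fell at all 3 times, at -0.74, -0.47 and -0.57. Of the same 17 genes, 2 were higher and 1 lower at 12 h, and 1 was higher and 2 lower at 24 h, with medians of 0.07 and 0.03. Those counts are near the share of all genes called, 16.1% at 12 h and 20.9% at 24 h. The one higher at 24 h was Jak2, the kinase bound to the beta chain, at 751 ± 157 CPM with FcMR and 328 ± 6.65 CPM with isotype (log2 1.19, SE 0.146, adjusted p 8.72e-06).

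Of 14 response and feedback genes linked to STAT5 or GM-CSF, 7 were higher and 1 lower with FcMR at 4 h, 6 higher and 3 lower at 12 h, and 9 higher and 4 lower at 24 h. The share of all genes called was 17.7%, 16.1% and 20.9%. The median log2 differences were 0.64, 0.32 and 0.58, against -0.07, -0.02 and 0.01 for all genes. Cish, a feedback inhibitor induced through STAT5, stood at 83.9 ± 10.2 CPM with FcMR and 23.4 ± 6.17 CPM with isotype at 4 h, a difference of 1.84 (SE 0.207, edgeR adjusted p 8.4e-06). Its isotype level fell with time, to 3.2 ± 1.07 CPM at 24 h from 41.9 ± 4.21 CPM in untreated cells. Socs3, the feedback inhibitor of the G-CSF receptor, was higher at 4, 12 and 24 h, by 1.72, 2.15 and 1.7, with adjusted p-values of 0.00064, 7.11e-05 and 0.000783.

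Not all of that list rose. Pparg, which GM-CSF induces in lung macrophages, was lower with FcMR by edgeR at every time, with log2 differences of -0.7, -1.54 and -2.24. At 24 h it was at 3.55 ± 0.215 CPM with FcMR and 16.6 ± 3.23 CPM with isotype. Ccnd1, a cell cycle gene, was at 7.56 ± 0.975 CPM with FcMR and 40.1 ± 8.01 CPM with isotype at 24 h (log2 -2.4, SE 0.232, adjusted p 5.37e-07). Bcl2l1, a survival gene, was higher by 0.95 (adjusted p 0.00105) at 4 h and, like Csf1, lower at 24 h (log2 -1.24, adjusted p 6e-05).

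Of 6 genes that control Csf1r transcription or its shedding, FcMR cells had 3 lower at 4 h, 2 lower at 12 h, and 1 higher and 2 lower at 24 h. The share of all genes called was 17.7%, 16.1% and 20.9% at these times. The medians of the list were -0.22, -0.22 and -0.36, against -0.07, -0.02 and 0.01 for all genes. Cebpa, a myeloid transcription factor, was lower at each time, at -1.3, -0.79 and -0.79, with edgeR adjusted p-values of 3.58e-05, 0.00207 and 0.00167. Adam17, the protease that sheds the Csf1r protein, was higher at 24 h by 0.49 (SE 0.0623, adjusted p 1.48e-05). Spi1, which encodes PU.1, differed by -0.51 at 24 h (SE 0.372, adjusted p 0.399) and was not called.

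Between isotype and untreated cells, 35.6%, 41.6% and 42.2% of all genes were called at 4, 12 and 24 h. Of the 17 signalling genes 6 were higher and 2 lower at 4 h, 6 and 2 at 12 h, and 7 and 2 at 24 h, not far from those shares. Stat5a was lower at 24 h, at -1.79 (SE 0.248, edgeR adjusted p 1.35e-05). Of the 14 response genes 5 were higher and 6 lower at 4 h, 3 and 8 at 12 h, and 1 and 9 at 24 h. Cish was among the lowest at 12 h and 24 h, at -2.73 and -3.69, with Ccl17, a chemokine induced by GM-CSF, at -2.43 and -4.85. Of the 6 Csf1r regulators 1 was higher and 2 lower at 4 h, 1 higher and 0 lower at 12 h, and 1 higher and 2 lower at 24 h. Il5ra was lower at 12 h, at -1.08 (SE 0.318, adjusted p 0.0111).

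**Figure D5:**
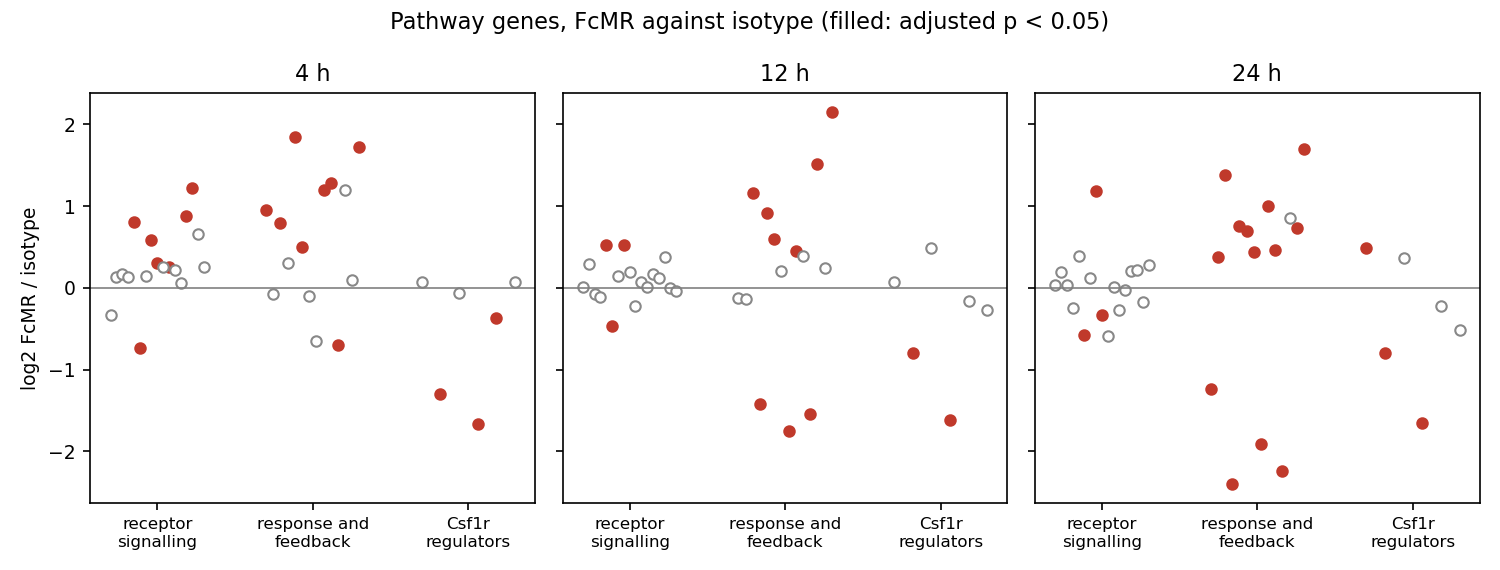
Log2 fold change of FcMR over isotype (edgeR) for each gene of 3 lists at 4, 12 and 24 h, 1 point a gene; filled points passed an adjusted p of 0.05. The list of response and feedback genes spreads furthest in both directions, from -2.4 (Ccnd1 at 24 h) to 2.15 (Socs3 at 12 h).

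Across the 21 libraries, which share 7 groups, some genes ran close to the 8. On log2 CPM, Csf1 was most like Bcl2l1 (r = 0.946), Fn1 (0.921) and Cmtm6 (0.918). Csf2 was most like Igbp1 (0.949), and Csf3 was most like Tnfaip3 (0.935), a feedback inhibitor of NF-kB. Csf2 and Csf3 correlated at 0.839 with each other. For Csf2ra the nearest were Rab1b (0.973), Ccdc124 (0.97) and Gpaa1 (0.969), with transcripts of 56.1%, 61.2% and 59.6% GC. Csf3r was most like Msi2 (0.889). Csf2rb was most like Cnnm4 (0.896) and Csf2rb2 most like Lrrc32 (0.938), while the beta chains correlated at 0.86 with each other. These values describe patterns over libraries that also share depth and GC tilt.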

How the data were processed

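RNA of 21 samples was sequenced as 75-base single reads, per the labels' protocols. The deposited table that the authors call raw holds estimated counts per gene, already whole numbers, and a second deposited table holds a normalized signal that the authors derived from them. The submitters' processing notes name CASAVA 1.8.2, kallisto 0.44.0 and DESeq2 in that work. The annotation release is not given in the sources used here, so symbols, positions and transcript GC come from GENCODE M21 (GRCm38) by gene ID without version. Promoter windows come from RefSeq (GRCm38.p6), where 5 of the 8 genes matched.

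Groups and replicate numbers were read from the sample titles. The plan assumed plain counts, and the same test was kept for estimated counts. One edgeR 4.0.16 quasi-likelihood fit (R 4.3.3, limma 3.58.1) covered all 21 libraries, with TMM factors and filterByExpr at its minimum of 10 counts, and was tested on simulated data. The 8 genes, the lists and the tests were chosen with earlier results of these data known. All 8 genes are named, with the 2 highest and 2 lowest called genes of a list and the 3 genes most correlated with each of the 8, from which the text selects; some genes under this rule are not reported here. Bcl2l1 is named under the latter rule, and Il3ra, Il5ra, Il34 and Spi1 were added after their values were seen. Alternatives were RLE factors, no filter, DESeq2 1.42.0, limma on the log2 of the deposited signal with a pseudocount of 1, GC correction, fitting only the groups compared, summed beta chains, a replicate block, and left-out libraries. Replicates of a group correlated at 0.92 to 0.987 and differed by more than sampling noise. Totals ran from 5532225 to 66729533, and intervals cover counting error only.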

Additional observations from a re-analysis of the deposited data

Results flagged for a closer look

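The difference between FcMR and isotype was not the same at 4, 12 and 24 h for Csf1 and Csf3r, by a joint edgeR test of that difference over time. For Csf1 the adjusted p was 2.04e-06, with log2 differences of 0.89, 0.03 and -0.78, so that the direction turned between 4 and 24 h. Over the alternatives its adjusted p ran from 1.31e-24 to 1.65e-05. For Csf3r the adjusted p was 0.000697, with differences of -0.17, 0.86 and -0.07. Over the alternatives its adjusted p ran from 2.68e-07 to 0.0109.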

How the results depend on the processing

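The differences of Csf1 at 4 h and 24 h, Csf2 at 4 h, Csf3 at 4 h and 12 h, and Csf3r at 12 h kept their direction and their call in every alternative run. Leaving out both libraries that stand out of title order gave 0.95 and -0.78 for Csf1, 3.06 for Csf2 at 4 h, 3.84 and 3.25 for Csf3, and 0.93 for Csf3r. GC correction turned values of Csf2ra against untreated cells, negative and not called without it, to 0.27 (isotype at 4 h), 0.29 (isotype at 24 h) and 0.27 (FcMR at 4 h). It also moved Csf2rb2 in isotype cells at 4 h from 0, not called, to 0.23 (adjusted p 0.0274). It left 56 of 80 results on the 8 genes on the same side in direction and call. RLE factors and DESeq2 did so for 75 each, and no filter for 67. The cause of these shifts was not tested.

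The number of genes called between FcMR and isotype at 4 h, 2390, was 3754 with GC correction, 868 with only the groups compared, and 3898 without both libraries. Of these, 2316 of 3754 were higher with GC correction, where the main split was 1161 of 2390. With 1 library left out the number ran from 1589 (without FcMR 4 h replicate 2) to 3151. At 12 h GC correction gave 3400 in place of 2169. Isotype against untreated at 4 h went from 4792 to 2881 with only the groups compared. The joint test over time, at 1484, gave 925 with no filter, 2989 with GC correction, 2616 without both libraries, and 973 (without FcMR 4 h replicate 2) to 2294 (without isotype 4 h replicate 3) with 1 library left out.

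Replicate numbers are shared by all groups, but nothing ties libraries of one number together, and libraries of one number deviated from their group means with mean correlations of -0.0708, 0.106 and 0.0138 for FcMR and isotype at the 3 times. With the number as a replicate block, 2541, 2290 and 2911 genes were called between them. On the 8 genes the block added 2 calls, isotype against untreated at 12 h for Csf3 (-1.45, adjusted p 0.0297) and Csf3r (-0.24, adjusted p 0.0491), and removed none.

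Depth limits Csf2 and Csf3 most, since 3 counts stand for up to 0.558 CPM.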
